A study of Homo sapiens with 4 samples.

Results

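The genes described here are CIITA, its relative NLRC5, CD74 and the MHC class II genes HLA-DRA, HLA-DRB1, HLA-DMA, HLA-DMB, HLA-DPA1, HLA-DPB1 and HLA-DQA1. Together they are called the class II set or class II genes below, although NLRC5 acts mainly on MHC class I genes. They were chosen by name, and all 10 have 1 row each in the table of 25548 gene symbols. Expression was measured by stranded RNA-seq of polyadenylated RNA in FaDu, an established squamous carcinoma line from the hypopharynx. One library came from FaDu cells given 5 µM 5-aza-2'-deoxycytidine (Aza), an inhibitor of DNA methylation, on days 1 to 3 and 100 nM trichostatin A (TSA), a histone deacetylase inhibitor, on day 3. The other came from FaDu cells labelled as given DMSO only, with ethanol as the stated vehicle of TSA. Each group has 1 library of 1 cell line, so no difference below has a replicate check, and none is tested. In bulk RNA, fewer cells that use a gene and less of its RNA per cell cannot be told apart.

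MHC class II molecules are pairs of an alpha and a beta chain that show peptides to CD4+ T cells. Dendritic cells, macrophages and B cells make them at all times, and epithelial cells mostly make them after interferon-gamma. The coactivator CIITA switches on the MHC class II genes and CD74. It joins a complex of RFX, CREB and NF-Y proteins on a shared promoter module of S, X and Y boxes. CD74, the invariant chain, fills the groove of new class II molecules, and HLA-DM later exchanges its last fragment for a peptide. NLRC5, a relative of CIITA, acts mainly on MHC class I genes.

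The series also holds the line UMSCC47, another head and neck squamous carcinoma line, given 3 µM Aza and 300 nM TSA or DMSO. Its columns did not follow the row names: 1 of 10 housekeeping genes in its treated library and 4 of 10 in its DMSO library reached 10 FPKM, against 10 of 10 in each FaDu library. The Spearman correlation between the UMSCC47 columns was 0.124, against 0.909 between the FaDu columns. No class II value is given for UMSCC47. The FPKM of all genes summed to 516692 in the treated FaDu library and 491963 in the DMSO FaDu library, and their depth in reads is unknown.

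After Aza and TSA, CD74 and NLRC5 were at least 2-fold higher, and the class II chains stayed under 1 FPKM, except HLA-DMA. FPKM counts sequenced fragments per kilobase of transcript, scaled to the size of the library. CD74 was listed at 10.9 FPKM in the treated library and at 0.961 FPKM in the DMSO library. NLRC5 was at 6.68 FPKM in the treated library and at 2.10 FPKM in the DMSO library. CIITA was at 0.0134 FPKM in the treated library and at 0.0936 FPKM in the DMSO library, so the class II coactivator itself was barely detected in either. None of the 7 HLA chains was called, and 6 of them were under 1 FPKM in both libraries.

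Changes are log2((treated FPKM + 1)/(DMSO FPKM + 1)), a scale on which low genes change less than their plain ratio. A gene counted as measured with 1 FPKM or more in either FaDu library, and as called with a 2-fold difference on that scale. By this rule 3 of the 10 genes were measured, 2 were called higher and none lower. Of all 13558 measured genes, 16.1% were called higher and 5.21% lower, in numbers 2178 and 706. After correction for GC content these numbers were 912 and 572. A gene that passes the filter only through the treated library had to differ, so the genes under 1 FPKM in the DMSO library were also counted without the filter. They include 8 of the class II set, of which 1, CD74, was at least 2-fold higher, against 6.8% of all 13486 symbols at that level. With no filter, the 10 genes had a median log2 change of 0.29, against 0.00 over all symbols. Of all symbols, 6073 were listed at 0 in the treated library and 7788 in the DMSO library, against 0 and 3 of the set. These medians therefore differ in detection too and do not show a shift of the set.

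**Figure D1:**
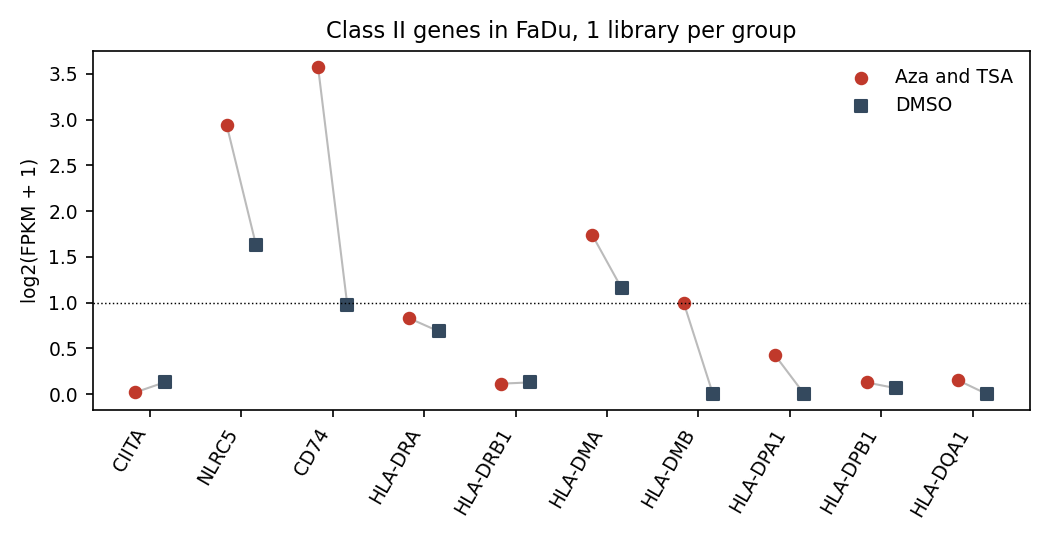
Level of each of the 10 class II genes in FaDu as log2(FPKM + 1), with circles for the library given Aza and TSA and squares for the DMSO library, 1 library each. The dotted line marks 1 FPKM. CD74 and NLRC5 are the genes with the highest treated values, at 10.9 and 6.68 FPKM, and CIITA lies near 0 in both libraries.

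RefSeq promoters were searched for letters of the shared promoter module, each from 250 bases before to 50 bases after the start site. Those of 4 genes are shown. RefSeq gave 8 promoters for 7 of the 10 genes (HLA-DPA1 has a pair), on build GRCh38.p14. None was given for CIITA, NLRC5 or HLA-DRA, so nothing below covers their promoters. HLA-DRB1 (chr6:32589799-32590098, minus strand) is shown because X and Y box letters lie close together in it, and HLA-DMA (chr6:32953048-32953347, minus strand) and HLA-DMB (chr6:32940979-32941278, minus strand) because they hold some of them. CD74 (chr5:150412861-150413160, minus strand) is shown because it had the largest change of the set. Capitals mark the X1 box core AGCAAC, the Y box core GATTGG on either strand and TGATGATG, which directly follows the X1 core in HLA-DRB1 and was chosen after the promoters were seen.
HLA-DRB1: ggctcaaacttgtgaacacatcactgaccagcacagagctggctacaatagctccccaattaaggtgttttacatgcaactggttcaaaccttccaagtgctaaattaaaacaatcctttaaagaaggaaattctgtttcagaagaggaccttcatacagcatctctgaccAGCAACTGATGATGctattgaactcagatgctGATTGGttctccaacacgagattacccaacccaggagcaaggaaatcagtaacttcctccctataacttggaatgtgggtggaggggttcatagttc
HLA-DMA: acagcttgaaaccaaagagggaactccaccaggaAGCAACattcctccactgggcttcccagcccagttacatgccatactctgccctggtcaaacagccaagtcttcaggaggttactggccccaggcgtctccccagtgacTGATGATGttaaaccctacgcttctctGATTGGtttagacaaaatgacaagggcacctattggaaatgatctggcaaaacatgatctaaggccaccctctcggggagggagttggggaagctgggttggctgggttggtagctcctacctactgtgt
HLA-DMB: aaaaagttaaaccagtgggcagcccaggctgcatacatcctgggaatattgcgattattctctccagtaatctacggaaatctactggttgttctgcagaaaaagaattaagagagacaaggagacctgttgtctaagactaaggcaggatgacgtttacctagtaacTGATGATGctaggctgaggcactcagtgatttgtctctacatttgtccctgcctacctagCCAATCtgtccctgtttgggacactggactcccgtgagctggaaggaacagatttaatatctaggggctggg
CD74: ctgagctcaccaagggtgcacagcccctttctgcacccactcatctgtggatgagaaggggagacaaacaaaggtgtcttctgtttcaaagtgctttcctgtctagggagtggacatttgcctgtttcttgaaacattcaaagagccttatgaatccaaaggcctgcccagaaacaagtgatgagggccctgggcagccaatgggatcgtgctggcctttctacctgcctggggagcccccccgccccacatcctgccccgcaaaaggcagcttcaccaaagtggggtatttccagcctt

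Both strands were searched. The Y box core GATTGG was found in promoters of 4 genes of the set (HLA-DRB1, HLA-DMA, HLA-DMB and HLA-DPB1) and in 15.1% of all 35116 promoters in the table. The X1 core AGCAAC was found in 3 (HLA-DRB1, HLA-DMA and HLA-DPA1) and in 12.8% of all. In the set, only the HLA-DRB1 promoter held the last 5 letters of the X1 core and the Y core after them with 10 to 40 bases between, an arrangement found in 0.376% of all promoters. There the X1 core starts at −79 and the Y core at −47 from the start site. TGATGATG was found in HLA-DRB1 at −73, in HLA-DMA at −107 and in HLA-DMB at −82, and in 0.94% of all promoters.

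The CD74 window held none of these letter patterns in full. It does hold ccaat, which is the Y core without its first letter on the other strand and was not searched for. Neither the E box CACGTG nor an interferon response pattern was in any promoter given for the set (7.26% and 3.57% of all promoters). The promoters of CIITA, NLRC5 and HLA-DRA were not among those given. The pattern TTCNNNGAA, known as a STAT binding site, was in HLA-DQA1 and in 7.66% of all. The CD74 promoter has 3 CpG, which is 0.14 of the number its base composition would give, against a median of 14 CpG and 0.58 over all promoters. The others of the set held 1 to 4 CpG, except the upstream HLA-DPA1 promoter (chr6:33080699-33080998, minus strand) with 27. A match describes letters in these windows, a missing match says only that the letters are not there, and no binding was measured.

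CIITA, the class II coactivator, and its relative NLRC5 both lie on chromosome 16, and NLRC5 was the one above 1 FPKM. For CIITA the treated value was 0.143 times the DMSO value, which is within 0.001% of the ratio 1 to 7 once the worth of a read is taken into account. NLRC5 was 3.17 times higher in the treated library as a plain ratio, a log2 change of 1.31 on the scale with 1 FPKM added, and 1275 of the 13558 measured genes had a larger change. The NLRC5 call depends on the processing: its log2 change was 0.68 after the trend with GC content was subtracted and 0.72 with 5 FPKM added in place of 1. Across the 7129 genes that reached 5 FPKM in each FaDu library and have a GC value, the log2 change and transcript GC content had a Spearman correlation of 0.67, and NLRC5 transcripts have a median GC content of 58.0%. What part GC content has in the NLRC5 difference was not tested.

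The low values rest on very few reads. FPKM of a gene moves in steps worth 1 read, so the ratio of its FaDu values is a ratio of whole numbers wherever 1 transcript holds its reads. Among 3775 genes between 0.005 and 1 FPKM in both FaDu libraries, 41.0% had such a ratio of numbers up to 10 within 0.001%. This held when 1 read was worth 0.0145% more FPKM in the DMSO library, and at the other worths tried the median share was 0%. Any scaling of the libraries by the authors is unknown, so this worth need not measure depth, and the absolute depth is unknown. At that worth 5 of the 10 genes gave a pair of whole numbers no larger than 60, and the smallest such pair is read below as reads. Their number may be a multiple of it, or a fraction where reads are shared between genes.

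The smallest pair for CIITA was 1 read in the treated library and 7 in the DMSO library, a treated share of 12.5% (exact 95% binomial interval 0.316% to 52.7%). An equal share, 50%, lies inside that interval, so a lower CIITA level was not detectable at this depth. These intervals cover counting error between these libraries only, and reads made by PCR are not independent molecules. For CD74 and NLRC5 no such pair was found.

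CD74, the invariant chain gene on chromosome 5, had the largest change of the set. Its treated value was 11.3 times its DMSO value, or 6.07-fold with 1 FPKM added to both, and 314 measured genes had a larger change. It stayed above 2-fold under every setting tried, from a log2 change of 1.42 with 5 FPKM added to 3.37 with 0.1 FPKM added, and was 1.88 after GC correction. CD74 transcripts have a median GC content of 59.7%.

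The level of CD74 relative to the class II chains also differed. In FPKM, which is per length, CD74 was 14.1 times HLA-DRA in the treated library and 1.58 times HLA-DRA in the DMSO library. The 7 HLA chains together came to 4.74 FPKM in the treated library and 1.98 FPKM in the DMSO library. CD74 alone was 2.30 times that sum in the treated library and 0.485 times it in the DMSO library.

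HLA-DMA and HLA-DMB encode the chains of HLA-DM, the peptide exchange factor. HLA-DMA was the only HLA chain at 1 FPKM or more in both libraries, at 2.34 FPKM treated and 1.23 FPKM in DMSO. Its log2 change of 0.58 is under the 2-fold threshold. Its smallest pair was 36 reads treated and 19 in DMSO, a treated share of 65.5% (exact 95% interval 51.4% to 77.8%), just above an equal share. After GC correction its log2 change was 0.27.

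HLA-DMB lay just outside the rules. It was listed at 0.999 FPKM in the treated library and at 0 in the DMSO library, so that it missed the filter of 1 FPKM, and its log2 change of 0.999 missed the threshold of 1. Its log2 change was 1.55 with TPM scaling, 1.02 after GC correction and 3.46 with 0.1 FPKM added.

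The classical alpha and beta chains, which form the peptide-presenting molecules on the cell surface, were all under 1 FPKM in both libraries. HLA-DRA, the nearly invariant alpha chain of HLA-DR, was at 0.775 FPKM in the treated library and 0.609 FPKM in the DMSO library. Its smallest pair was 14 reads treated and 11 in DMSO, a treated share of 56.0% (exact 95% interval 34.9% to 75.6%), so no difference was detectable at this depth. Its usual partner, the beta chain HLA-DRB1, was at 0.0826 FPKM treated and 0.0929 FPKM in DMSO, in the ratio 8 to 9. HLA-DRB1 shares near-identical sequence with HLA-DRB5, at 0.144 FPKM treated and 0.154 FPKM in DMSO, and with the pseudogene HLA-DRB6, at 0.0770 and 0.116 FPKM, and reads cannot be assigned to one copy with certainty. HLA genes are also highly variable between people, and alleles of FaDu that differ from the reference genome can lose reads, which was not tested.

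The HLA-DP and HLA-DQ chains were at 0.342 FPKM or less in both libraries. HLA-DPA1 was at 0.342 FPKM in the treated library and listed at 0 in the DMSO library. Its partner HLA-DPB1 was at 0.0927 FPKM treated and 0.0464 FPKM in DMSO, a pair of 2 reads and 1 read. Its log2 change of 0.06 turned negative after correction for GC content (−0.46) or length (−0.04). Those trends were fitted on genes at 5 FPKM or more in each library, so the change of sign says nothing on HLA-DPB1 itself. HLA-DQA1 was at 0.111 FPKM treated and listed at 0 in DMSO. Beside the set, 8 further class II rows were in the table, none was called, and only HLA-DOB, a chain of the HLA-DM inhibitor HLA-DO, was measured, at 1.02 FPKM treated and 0.408 FPKM in DMSO. Over the 15 chain rows in all, 1 (HLA-DPB2) had a value of 0 in the treated library and 8 had a value of 0 in the DMSO library.

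In the treated library the levels ran CD74, NLRC5, HLA-DMA, HLA-DMB, HLA-DRA, HLA-DPA1, HLA-DQA1, HLA-DPB1, HLA-DRB1 and CIITA, high to low. In the DMSO library NLRC5 and HLA-DMA stood above CD74, followed by HLA-DRA, CIITA, HLA-DRB1 and HLA-DPB1, with the other 3 at 0. With 1 library each, no spread is available to say which neighbours in these orders differ.

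**Figure D2:**
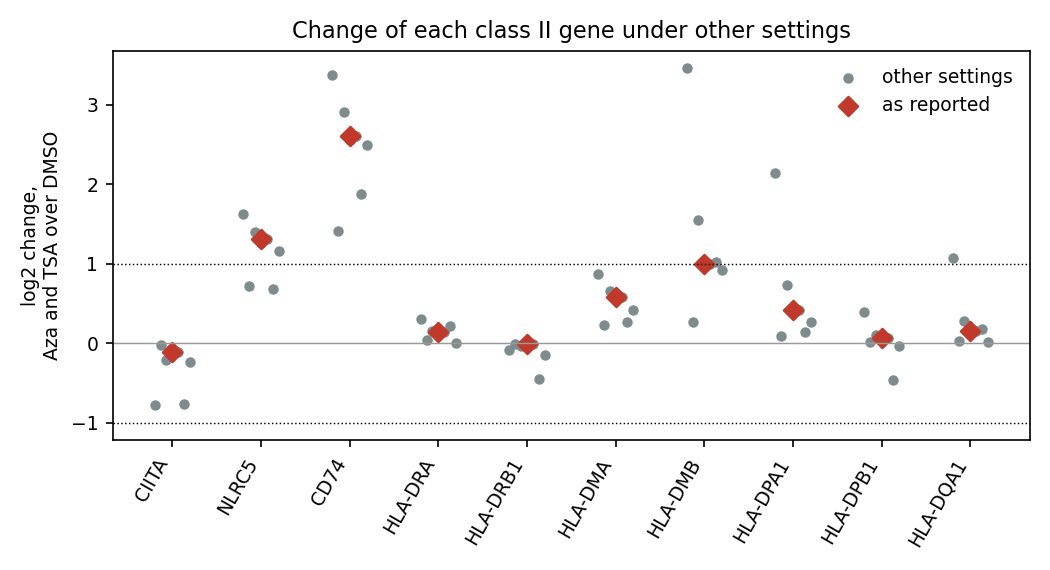
The log2 change of each class II gene, Aza and TSA over DMSO, as reported (diamonds) and under the other settings (small circles), with dotted lines at 2-fold. CD74 lies above 2-fold throughout, NLRC5 drops to 0.68 after GC correction and 0.72 with 5 FPKM added, and HLA-DMB ranges from 0.26 to 3.46.

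The HLA genes of the set lie together in the class II region of chromosome 6, where genes of class I peptide supply are interspersed. From NOTCH4 to SLC39A7 in RefSeq gene order, 24 protein-coding genes had a row and 9 were measured. Against 16.1% higher and 5.21% lower of all measured genes, none of the 9 was called lower and 3 were called higher. These were TAP1, a subunit of the peptide transporter, at 38.2 FPKM treated and 9.35 FPKM in DMSO, the immunoproteasome subunit PSMB9 at 25.8 and 11.6 FPKM, and the zinc transporter SLC39A7 at 84.4 and 30.2 FPKM. TAP1 and PSMB9 are the genes beside HLA-DMB on one side. BRD2, beside HLA-DMA on the other, was at 108 FPKM treated and 84.8 FPKM in DMSO and was not called.

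**Figure D3:**
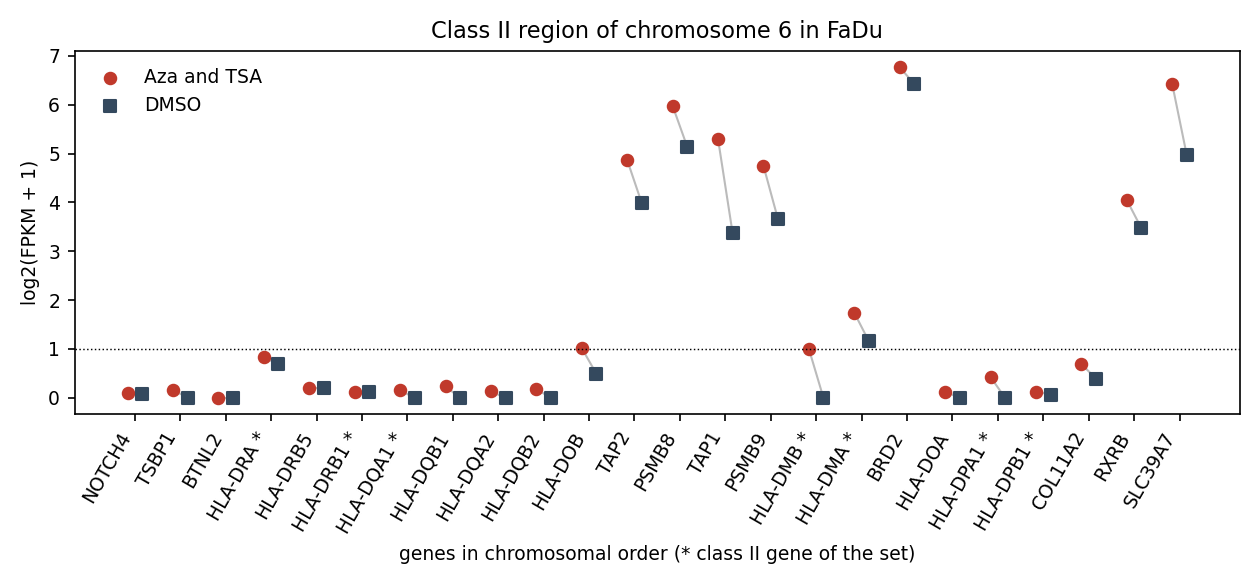
Genes of the class II region of chromosome 6 in their order along the chromosome, as log2(FPKM + 1) in the FaDu library given Aza and TSA (circles) and in the DMSO library (squares). Asterisks mark genes of the set and the dotted line is at 1 FPKM. TAP2, PSMB8, TAP1 and PSMB9 stand at 9.35 to 61.8 FPKM, between class II genes at 2.34 FPKM or less.

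The genes next to the other members were mixed. Beside CD74, neither TCOF1 nor the ribosomal protein gene RPS14, at 646 FPKM treated and 592 FPKM in DMSO, was called, and farther out ARSI (3.09 FPKM treated, 0.985 FPKM in DMSO) and SYNPO (3.72 and 1.27 FPKM) were higher. Beside NLRC5, CPNE2 was higher, at 10.0 FPKM treated and 3.69 FPKM in DMSO. Farther out from CIITA, SOCS1, an inhibitor of interferon signalling, was higher, at 2.65 FPKM treated and 0.177 FPKM in DMSO. DEXI and CLEC16A lie between CIITA and SOCS1, and neither was called. Over all 33 such neighbours with a row, counted 3 to each side of a member, 19 were measured. Of these, 7 were called higher and none lower, against 16.1% and 5.21% of all measured genes. The 7 include TAP1, PSMB9 and SLC39A7 of the class II region. With so few genes, whether neighbours differ from all genes was not tested.

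The promoter factors that CIITA works through were present in both libraries, in contrast to CIITA. Of 7 such genes none was called higher and 1 lower, against 16.1% and 5.21% of all measured genes. Their median log2 change was 0.07, against 0.13 over all measured genes. The lower one was RFXAP, a subunit of the RFX complex, at 1.52 FPKM treated and 5.45 FPKM in DMSO. RFXAP transcripts have a median GC content of 38.05%, and the part of GC content in this difference was not tested. The DNA-binding subunit RFX5 was at 12.1 FPKM treated and 11.7 FPKM in DMSO. Of 5 genes reported as repressors of CIITA, none was called.

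The route by which interferon-gamma induces CIITA was also measured. Of 10 genes, 9 were measured, 1 was higher (SOCS1) and 1 lower, against 16.1% and 5.21% of all measured genes. The median log2 change was 0.06, against 0.13 over all measured genes. After GC correction these medians were −0.44 and 0.01. SOCS1 passed the filter only through the treated library, and its transcripts have a median GC content of 67.25%. The lower gene was IFNGR1, the ligand-binding chain of the interferon-gamma receptor, at 29.3 FPKM treated and 73.5 FPKM in DMSO. IFNGR1 transcripts have a median GC content of 39.7%. What part GC content has in these differences was not tested. The transcription factor IRF1 was at 13.5 FPKM treated and 12.9 FPKM in DMSO. IFNG itself was at 0.178 FPKM treated and listed at 0 in DMSO.

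Class II processing and turnover had 10 genes, of which 9 were measured, 2 higher and 1 lower, and their median log2 change was 0.18. Of all measured genes 16.1% were called higher and 5.21% lower, with a median of 0.13, or 0.01 after GC correction. IFI30, a lysosomal thiol reductase, was at 40.02 FPKM treated and 15.5 FPKM in DMSO, and the lysosomal protease LGMN was at 132 and 59.9 FPKM. CTSS, the protease known to trim CD74 in antigen-presenting cells, was lower, at 1.20 FPKM treated and 4.70 FPKM in DMSO. CTSS transcripts have a median GC content of 41.8%. The median log2 change of the processing list was 0.02 after GC correction. Of the 5 CD74 ligands and co-receptors, DDT, a homologue of the CD74 ligand MIF, was the 1 called, at 63.7 FPKM treated and 30.03 FPKM in DMSO. MIF was at 314 and 184 FPKM. The measured ligands and co-receptors had a median log2 change of 0.78, which was 0.06 after GC correction. What part GC content has in these differences was not tested.

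Among 12 reported class I targets of NLRC5, all measured, 6 were called higher and none lower, with a median log2 change of 1.00. Of all measured genes 16.1% were called higher and 5.21% lower, with a median of 0.13. The highest change among the 12 targets was that of HLA-B, at 407 FPKM treated and 103 FPKM in DMSO. TAP1 came next, followed by HLA-F at 23.3 FPKM treated and 5.72 FPKM in DMSO. The list's median was 0.56 after GC correction, 0.85 with 5 FPKM added and 0.96 with TPM scaling, each under 2-fold. Over all measured genes the median was 0.01 after GC correction, 0.08 with 5 FPKM added and 0.10 with TPM scaling. B2M, the light chain of class I, was not called, at 1138 FPKM treated and 1188 FPKM in DMSO.

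**Figure D4:**
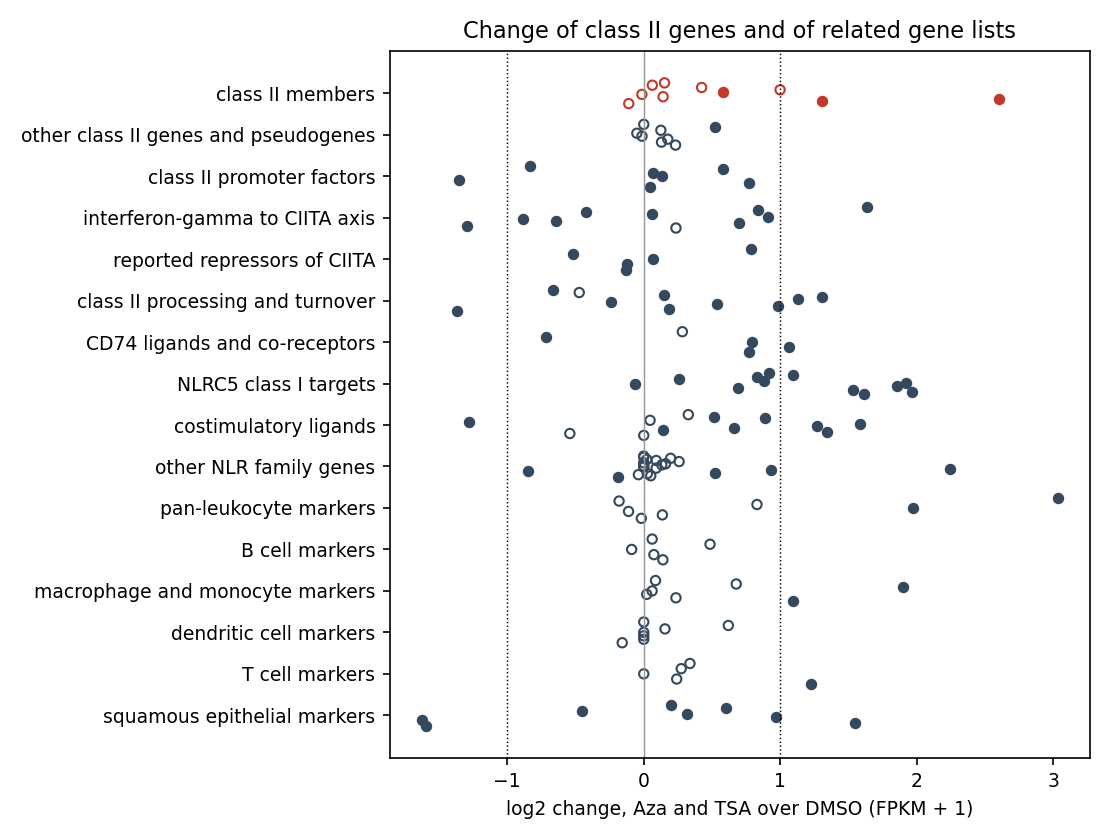
The log2 change, Aza and TSA over DMSO, of each gene of the class II set (top line, in red) and of the related lists. Filled circles are genes at 1 FPKM or more in either FaDu library, open circles are genes below that, and dotted lines mark 2-fold. Of the 10 class II genes 7 are open circles. Of 12 NLRC5 class I targets 6 lie beyond 2-fold, all higher, against 16.1% of all measured genes called higher.

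FaDu is epithelial, and markers of leukocytes were read beside the set. These cover dendritic cells, macrophages and B cells, which make class II at all times, and also T cells. All 8 squamous epithelial markers were measured, with KRT17 at 1341 FPKM treated and 1164 FPKM in DMSO. Of these, KRT14 was called higher (147 FPKM treated, 49.8 FPKM in DMSO), and KRT5 (226 and 687 FPKM) and TP63 (23.2 and 73.7 FPKM) were called lower. Of 31 leukocyte markers 5 were measured and all 5 were called higher, with 6 listed at 0 in the treated library and 17 in the DMSO library. The 5 were CORO1A (10.7 FPKM treated, 0.425 FPKM in DMSO), LAPTM5 (3.16 and 0.0585 FPKM), CD68 (51.3 and 12.98 FPKM), CD14 (4.59 and 1.62 FPKM) and CD3D (1.33 FPKM treated, listed at 0 in DMSO), of which CORO1A, LAPTM5 and CD3D passed the filter only through the treated library. Of all measured genes 16.1% were called higher and 5.21% lower. Of all symbols under 1 FPKM in the DMSO library, 6.8% were at least 2-fold higher. Of all 25548 symbols, 2178 were called higher, and 6073 were listed at 0 in the treated library and 7788 in the DMSO library. The leukocyte markers summed to 75.8 FPKM in the treated library and 16.6 FPKM in the DMSO library, of which CD68 was the largest part. The pan-leukocyte gene PTPRC was at 0.0385 FPKM treated and 0.0513 FPKM in DMSO. By list, the pan-leukocyte markers summed to 15.0 FPKM treated and 1.02 FPKM in DMSO, and the macrophage and monocyte markers to 56.9 and 14.8 FPKM. The B cell markers summed to 0.680 FPKM treated and 0.142 FPKM in DMSO, the dendritic cell markers to 1.012 and 0.519 FPKM, and the T cell markers to 2.16 and 0.133 FPKM. The markers listed at 0 in the treated library were CD79A, CD1C, FLT3, CLEC9A, LILRA4 and CD2. What part such cells or genes have in the CD74 and NLRC5 values was not tested.

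The genes most like CD74 and NLRC5 over both FaDu libraries were found by the distance of log2(FPKM + 1) values, over 2 libraries only. Nearest to CD74 were SLC15A3 (10.8 FPKM treated, 1.006 FPKM in DMSO, distance 0.0335), the pseudogene NBEAP1 and PCBP4. Nearest to NLRC5 were FAM108A1 (6.65 FPKM treated, 2.05 FPKM in DMSO, distance 0.0285), SH3BP5L and C16orf5.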

How the data were processed

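The authors deposited FPKM values by gene symbol, with 1 column for each library. The submitters' processing notes name TopHat 1.3.2, Cufflinks 2.0.2 and the build hg19, without their order or settings. How libraries were scaled or genes filtered is not stated there. The 4 libraries, 1 in each of 4 groups, were grouped by their titles. From the 25593 rows, 45 repeats were summed into symbols. No p-value is given with 1 library a group. Genes were called at 2-fold after 1 FPKM was added, with 1 FPKM or more in either library.

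GC content and length were medians over GENCODE release 29 transcripts, found for all 10 genes of the set and 12529 of 13558 measured genes. Their trends were fitted by lowess (statsmodels 0.14.6, fraction 0.3) over the 7129 genes with 5 FPKM or more in each FaDu library. GENCODE and RefSeq are on another build than the files, so only names, gene order and sequences were used. Of 150 listed symbols 148 had a row, CTSL under its older symbol CTSL1. Alternatives were another amount added (0.1 or 5 FPKM), no filter or one at 5 FPKM, TPM or median ratio scaling, the highest row of a symbol, the GC and length corrections and a 4-fold threshold. Exact binomial intervals came from scipy 1.17.1. The calculations were tested on simulated data.

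The set, the gene lists and the rules were chosen with earlier results of these data known. Named genes are all 10 of the set, called genes of each list (up to 4, by size of change), called neighbours and the 3 nearest genes of each called gene. Other genes were named because a sentence on the set turned on them, after their values were seen. Some genes that this rule names are not reported here.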

Additional observations from a re-analysis of the deposited data

How the results depend on the processing

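No class II gene was called lower under any of the 10 other settings. The count called higher, 2, was 1 with 5 FPKM added, after GC correction and at a 4-fold threshold, where CD74 remained, 3 with TPM scaling, where HLA-DMB was added, and 2 under the other 6 settings. Over all genes, 2178 were called higher and 706 lower. With 0.1 FPKM added 1182 were lower. With 5 FPKM added the counts were 893 and 253, and at 4-fold they were 496 and 91. TPM scaling gave 1152 lower. GC correction gave 912 higher and 572 lower, so that 61.5% of called genes were higher, against 75.5% without it, and the median of measured genes was 0.01 with it and 0.13 without. The cause was not tested. Of 80 single-gene values under other settings 72 stayed on their side of 2-fold, 5 moved past it and 3, all NLRC5, no longer passed (with 5 FPKM added, after GC correction and at 4-fold). Those that moved past it were HLA-DMB, HLA-DPA1 (2.14) and HLA-DQA1 (1.08), all listed at 0 in the DMSO library, the last pair only with 0.1 FPKM added. Levels under 1 FPKM rest on few reads, which limits every statement on the HLA chains and CIITA. No paired analysis was possible because each group has 1 library. The reading of values as whole reads was chosen after the data were seen.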

Other observations

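T cell activation also needs costimulatory ligands beside the class II molecule. A list of 12 genes held such ligands, but also inhibitory ones such as the PD-1 ligands CD274 and PDCD1LG2. Of these 12 genes 8 were measured in FaDu, 3 were called higher and 1 lower, against 16.1% and 5.21% of all measured genes. The median log2 change was 0.78 over the measured genes and 0.42 over all 12, activating and inhibitory ligands together. Over all measured genes the median was 0.13, and over all symbols it was 0.00. After GC correction the median of the measured ligands was 0.61, against 0.01 over all measured genes. CD40, a receptor that antigen-presenting cells use to receive T cell help, was at 2.28 FPKM in the treated library and 0.295 FPKM in the DMSO library. Its smallest pair of whole numbers was 54 reads treated and 7 in DMSO. ICAM1, an adhesion ligand of T cells, was at 21.3 FPKM treated and 6.42 FPKM in DMSO, and the PD-1 ligand PDCD1LG2 was at 1.99 and 0.242 FPKM. CD40 and PDCD1LG2 passed the filter only through the treated library, so they had to differ. CD58, the ligand of CD2, was lower, at 13.7 FPKM treated and 34.6 FPKM in DMSO. CD58 transcripts have a median GC content of 38.6%, and the part of GC content in this difference was not tested. CD80 was listed at 0 in both libraries, and CD86 was at 0.193 FPKM treated and 0.736 FPKM in DMSO.

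Among 20 other genes of the NLR family, to which CIITA and NLRC5 belong, 5 were measured and 1 was called higher. This was NLRP2, at 3.73 FPKM in the treated library and listed at 0 in the DMSO library. It passed the filter only through the treated library. Of all measured genes, 16.1% were called higher. NLRP1 was at 13.5 FPKM treated and 6.58 FPKM in DMSO, a log2 change of 0.93, and 5 of the 20 were listed at 0 in both libraries.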
